A study of Mus musculus with 9 samples.

Results

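The genes described here are 10 imprinted genes that regulate embryonic growth, namely *Igf2*, *Dlk1*, *Igf2r*, *Grb10*, *Cdkn1c*, *Plagl1*, *Peg3*, *Ndn*, *Mest* and *H19*. They were chosen by name, and every probe listed under one of these symbols was used, which gave 15 of the 25697 probes and 10 of the 18120 gene symbols on the array. RNA was taken from CD-1 mouse embryos at E10.5 that were dissected into 3 tissue groups, with 3 pools and so 3 arrays in each. The otic vesicle (OV) group held pooled, microdissected vesicles. The periotic group held the tissue around the vesicle, with mesenchyme and hindbrain. The embryo-minus-otic group was the rest of the whole embryo after the greater otic region had been removed, so it is a mixture of many tissues. The study compared the OV with these non-otic groups to find genes that set the otic lineage apart. Each pool came from several animals, the tissue was collected from 3 litters, and a value is the average over the cells of a pool.

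Imprinted genes are transcribed mainly from the copy inherited from one parent, and most of them lie in clusters under the control of a shared imprinting control region. Many act on growth of the embryo and placenta, where in general paternally expressed genes such as *Igf2* promote growth and maternally expressed genes such as *Igf2r*, *Grb10* and *Cdkn1c* restrain it. The arrays measured total RNA of a gene and carry no information on which parental copy was transcribed.

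Sequences are given for 2 reasons: to show the small RNAs that lie inside *H19* and *Igf2*, and to show the start regions of members whose intensity was lower in OV and periotic tissue than in the rest of the embryo. All are from RefSeq on build GRCm38.p6, 5′ to 3′. Both hosts lie on the minus strand of chromosome 7, where *H19* carries miR-675 and *Igf2* carries miR-483, and each mature sequence is shown with its seed, bases 2 to 8, in capitals. The arrays did not measure these miRNAs.
miR-675-5p, chr7:142577112-142577133, minus strand: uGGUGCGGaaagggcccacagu
miR-675-3p, chr7:142577078-142577099, minus strand: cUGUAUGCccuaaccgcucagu
miR-483-5p, chr7:142654968-142654989, minus strand: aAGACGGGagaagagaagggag
miR-483-3p, chr7:142654932-142654952, minus strand: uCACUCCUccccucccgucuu
No seed was shared among these, nor with the 2 arms of miR-335 inside *Mest*, so that the 6 mature miRNAs of the 3 host members have 6 different seeds.

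Start regions were listed for 8 of the 10 members, and the stretches printed are the bases before the start site of the members with 1 listed start, a lower intensity in both other tissues than in the embryo-minus-otic group and a window that lies before the gene. Capitals mark GGGGCCCC, the motif known for the imprinted zinc finger factor Plagl1, and GGGCGG, the GC box, with both searched on both strands.
*Peg3*, chr7:6730463-6730669, minus strand: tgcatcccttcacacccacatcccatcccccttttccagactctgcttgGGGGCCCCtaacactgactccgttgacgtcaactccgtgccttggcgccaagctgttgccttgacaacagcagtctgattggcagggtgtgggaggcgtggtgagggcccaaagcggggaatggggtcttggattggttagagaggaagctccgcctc
*Igf2r*, chr17:12769707-12769956, minus strand: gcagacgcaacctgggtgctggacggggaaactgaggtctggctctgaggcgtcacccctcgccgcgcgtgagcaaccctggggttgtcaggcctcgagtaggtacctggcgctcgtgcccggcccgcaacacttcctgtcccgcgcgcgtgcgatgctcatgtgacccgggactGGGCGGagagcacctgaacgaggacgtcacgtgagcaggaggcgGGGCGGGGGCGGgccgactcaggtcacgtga
*Ndn*, chr7:62348027-62348276, plus strand: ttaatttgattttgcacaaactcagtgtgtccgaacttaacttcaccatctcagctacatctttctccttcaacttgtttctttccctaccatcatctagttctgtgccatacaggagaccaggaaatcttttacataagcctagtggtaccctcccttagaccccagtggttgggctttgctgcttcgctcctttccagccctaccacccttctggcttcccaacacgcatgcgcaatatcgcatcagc
The *Peg3* window was the only one of the 14 listed for the members that held GGGGCCCC, which occurred in 292 of 32851 windows of all genes (0.889%). The GC box was in 32.7% of all windows and occurred 3 times before *Igf2r*, with 2 of these side by side, and not before *Peg3* or *Ndn*. TATAAA was in 12.4% of all windows and in none of the members' windows. Counted over the 250 bases of each window, *Igf2r* had 27 CG pairs, *Peg3* 8 and *Ndn* 5, against a median of 6 over all windows. The *Peg3* stretch printed is shorter than its window, with 207 bases. A match of letters is a description and was not tested as a binding site.

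All values below are log2 intensities after quantile normalization over the 9 arrays, and a fold Δ is the ratio of the brighter to the dimmer group mean on the linear scale. Differences were tested with limma over all 25697 probes, with p-values adjusted by Benjamini-Hochberg, here *q*, and a call at a *q* under 0.05. A gene with several probes is described by its brightest probe. The OV label held against its markers, since all 9 measured epithelial markers and 8 of 11 otic markers were higher in OV than in embryo-minus-otic tissue. In periotic tissue, 5 of 12 neural tube markers were higher and 10 of 13 mesenchyme markers lower than in embryo-minus-otic tissue. *Oc90*, which encodes the main protein of the otoconia, stood at 9.69 to 10.56 on the OV arrays and at 6.22 or less on the others. The first OV array stood apart from the other 2 in heart muscle genes: *Myl2*, a ventricular myosin light chain, read 7.53 there and 5.59 and 5.65 on the other OV arrays, against 11.08 to 11.46 in embryo-minus-otic tissue. For the members, results that rest on this array are given with and without it. In pooled tissue, fewer cells of a type and less RNA per cell cannot be told apart.

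Of the 10 members, 6 were lower in OV than in embryo-minus-otic tissue, none was higher and 4 were not called. Without the first OV array 5 were lower, since *Igf2r* was lost. The same 6 genes, *Igf2*, *Dlk1*, *Igf2r*, *H19*, *Peg3* and *Ndn*, were lower in periotic than in embryo-minus-otic tissue, and these comparisons share the embryo-minus-otic arrays. Between OV and periotic tissue only *Ndn* was called, and it was lower in OV. Over all probes, 5.51% were lower and 5.89% higher in OV than in embryo-minus-otic tissue, 2.95% were lower and 2.86% higher in periotic than in embryo-minus-otic tissue, and 5.15% were lower and 5.07% higher in OV than in periotic tissue. Of probes above background on every array of at least 1 group, 11849 in number and with 9 of the members among them, the share called in either direction was 23.2% for OV against embryo-minus-otic, 12.1% for periotic against embryo-minus-otic and 20.9% for OV against periotic tissue. The median difference of the 9 members was -0.72 for OV minus embryo-minus-otic, -0.66 for periotic minus embryo-minus-otic and -0.04 for OV minus periotic tissue. The median over all probes was within 0.01 of 0 in each comparison. With median in place of quantile normalization the split over all probes was 1472 higher and 670 lower in place of 1513 and 1417 for OV against embryo-minus-otic tissue, and 812 higher and 315 lower in place of 736 and 757 for periotic against embryo-minus-otic tissue.

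**Figure D1:**
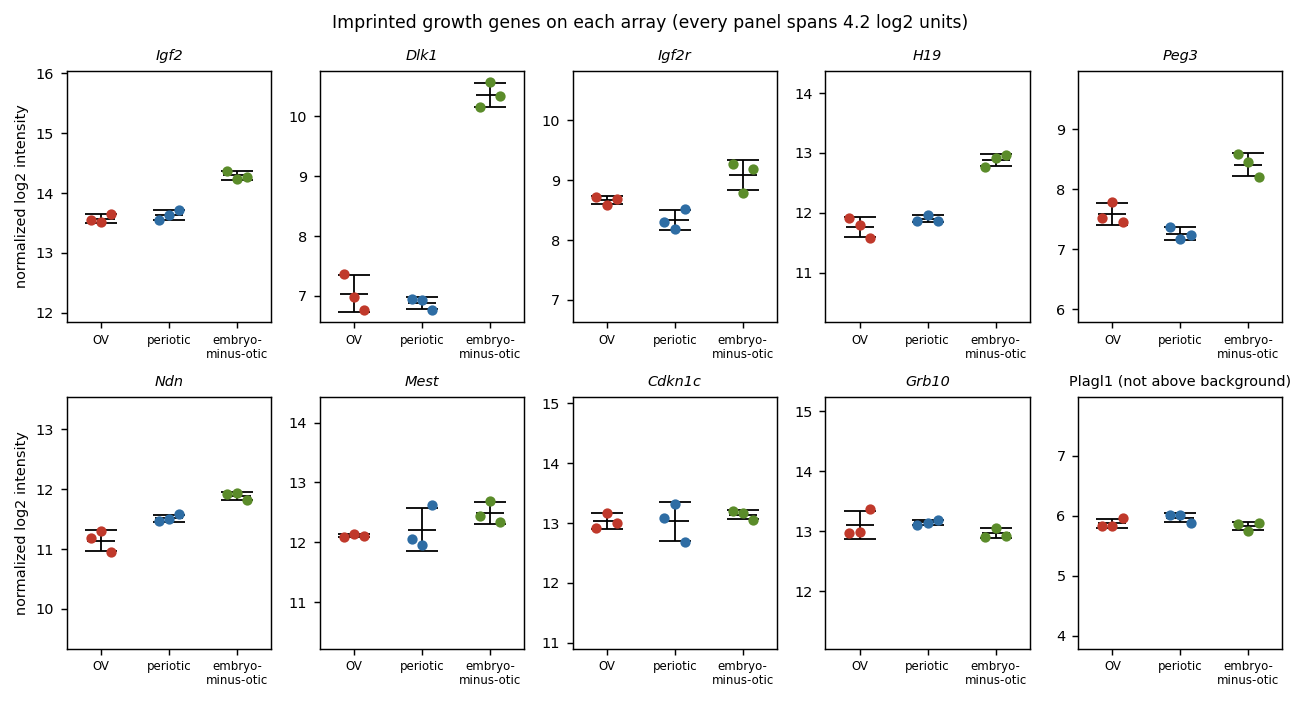
Normalized log2 intensity (y axis) of the lead probe of each member on the 9 arrays, by tissue (x axis). Points are arrays, the middle bar is the mean and the outer bars are 1 SD on each side. Every panel spans the same number of log2 units, so the step of *Dlk1* to the embryo-minus-otic arrays can be set against the levels of *Cdkn1c* and *Grb10*.

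The growth factors came first. *Igf2* encodes insulin-like growth factor 2, the chief fetal growth factor of the insulin family, and is expressed from the paternal copy. It read 13.56, 13.51 and 13.65 on the OV arrays, 13.56, 13.63 and 13.72 on the periotic arrays and 14.37, 14.24 and 14.28 on the embryo-minus-otic arrays. All 3 embryo-minus-otic arrays were above all others, and the OV and periotic values overlapped. The probe was bright everywhere, with deposited signals of 10543.5 to 13102.8 in OV against 18157.5 to 22922.3 in embryo-minus-otic tissue, under the highest signal of each array, which was at least 29757. The difference was -0.72 ± 0.09 (SE, n = 3 per group) in OV, a fold Δ of 1.65 (*q* = 2.39e-05, limma), and -0.66 ± 0.09 in periotic tissue, a fold Δ of 1.58 (*q* = 1.29e-04, limma). OV and periotic tissue differed by -0.06, with a 95% confidence interval from -0.25 to 0.12.

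*Dlk1*, a paternally expressed transmembrane protein of the Notch ligand type that is known for holding back differentiation of progenitor cells, showed the widest difference of the members. It read 7.36, 6.99 and 6.76 in OV, 6.95, 6.93 and 6.77 in periotic and 10.16, 10.56 and 10.34 in embryo-minus-otic tissue. The embryo-minus-otic arrays stood far above the rest, while OV and periotic arrays overlapped. *Dlk1* was 9.97-fold lower in OV than in embryo-minus-otic tissue (difference -3.32 ± 0.14 SE, *q* = 3.86e-10, limma) and 11.1-fold lower in periotic tissue (-3.47 ± 0.14, *q* = 5.83e-10, limma). Ranked from the most negative difference over all probes, it was in place 20 for OV and in place 15 for periotic tissue. It was above background on all 9 arrays. The highest of the OV values was on the first OV array, and without that array the OV difference was -3.47 (*q* = 2.76e-10, limma). Between OV and periotic tissue the difference was 0.15, with an interval from -0.14 to 0.45, and without the first OV array it was -0.01.

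Many mesenchyme and heart muscle markers and some liver and endoderm markers moved with *Igf2* and *Dlk1*. Neural tube, erythroid and endothelial markers, given further below, had other patterns. Of 13 mesenchyme markers measured, 11 were lower in OV and 10 in periotic tissue than in embryo-minus-otic tissue, and 2 were above background on no array. Their summed linear intensity was 1863 to 2148 in OV, 2152 to 2519 in periotic tissue and 4715 to 5269.8 in embryo-minus-otic tissue. *Pdgfra*, a receptor of mesenchymal cells, was above background on every array, at 8.21 to 8.37 in OV, 8.27 to 8.69 in periotic tissue and 9.47 to 9.78 in embryo-minus-otic tissue. Of 12 heart muscle genes, 10 were lower in each of the same comparisons and 2 were above background on no array, with sums from 696 to 1310 for OV, from 717 to 727 for periotic tissue and from 11982.5 to 14259.9 for embryo-minus-otic tissue. Of 9 liver and endoderm markers, 4 were lower in OV and 3 in periotic tissue than in embryo-minus-otic tissue. Only 3 of the 9 were above background on all arrays of a group, and these were lower in both. *Foxa2*, also called in OV, was above background on no OV and no embryo-minus-otic array. The sums, which include probes at background, were 527 to 561 for OV, 563 to 633 for periotic tissue and 965 to 1123 for embryo-minus-otic tissue. *Afp*, the alpha-fetoprotein of fetal liver and yolk sac, was above background on the embryo-minus-otic arrays only, at 7.68 to 7.88, as was *Apoa2*, an apolipoprotein, while albumin (*Alb1*) was above background on no array. The part of these tissues in the differences of the members was not tested.

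*Igf2r* encodes the receptor that binds IGF2 and takes it to the lysosome, and is expressed from the maternal copy in most mouse tissues. Its lead probe read 8.72, 8.58 and 8.69 in OV, 8.29, 8.19 and 8.51 in periotic and 9.27, 8.79 and 9.19 in embryo-minus-otic tissue. The 3 groups did not overlap, with embryo-minus-otic tissue at the top and periotic tissue at the bottom. Periotic tissue was lower than embryo-minus-otic tissue by -0.75 ± 0.12 (fold Δ 1.68, *q* = 9.26e-04, limma), and OV by -0.42 ± 0.12 (fold Δ 1.34, *q* = 0.0353, limma). OV and periotic tissue differed by 0.33, with an interval from 0.07 to 0.59 (*q* = 0.115, limma), and this passed without the second embryo-minus-otic array (*q* = 0.0356) and in a fit of only these 2 groups (*q* = 0.0438). The second probe ran the same way and passed in neither, with -0.21 (*q* = 0.548) for OV and -0.54 (*q* = 0.0759) for periotic tissue. The OV call was lost in 12 of 19 alternatives, with a *q* between 0.00238 and 1 over all of them, and the difference was -0.24 with median normalization. Among arrays left out in turn it was lost without OV array 1 (*q* = 0.0665), 2 (*q* = 0.132) or 3 (*q* = 0.0818), periotic array 1 (*q* = 0.0530) or embryo-minus-otic array 1 (*q* = 0.141) or 3 (*q* = 0.125). The periotic call was lost with median normalization (*q* = 0.0651).

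Among the members that act inside the cell as brakes on growth, 2 were above background on all arrays and called in no comparison. *Cdkn1c* encodes p57, a maternally expressed inhibitor of cyclin-dependent kinases. It read 12.91, 13.17 and 13.00 in OV, 13.08, 13.33 and 12.69 in periotic and 13.20, 13.17 and 13.05 in embryo-minus-otic tissue, and all groups overlapped. The interval of the difference ran from -0.39 to 0.17 for OV minus embryo-minus-otic, from -0.39 to 0.17 for periotic minus embryo-minus-otic and from -0.28 to 0.28 for OV minus periotic tissue. *Grb10*, an adaptor protein that dampens insulin and IGF receptor signalling, read 12.97, 12.98 and 13.37 in OV, 13.11, 13.14 and 13.19 in periotic and 12.91, 13.06 and 12.93 in embryo-minus-otic tissue. OV overlapped both other groups, and the periotic values lay above the embryo-minus-otic ones by 0.18, with an interval from -0.05 to 0.41 (*q* = 0.475, limma). The interval for OV minus embryo-minus-otic ran from -0.09 to 0.37. The widest of these intervals reached a fold Δ of 1.33.

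*Peg3*, a paternally expressed zinc finger gene, read 7.53, 7.80 and 7.45 in OV, 7.38, 7.17 and 7.24 in periotic and 8.59, 8.45 and 8.20 in embryo-minus-otic tissue. The groups did not overlap, and periotic tissue was the lowest. *Peg3* was 2.22-fold lower in periotic tissue (-1.15 ± 0.12, *q* = 9.52e-06, limma) and 1.77-fold lower in OV (-0.82 ± 0.12, *q* = 1.21e-04, limma) than in embryo-minus-otic tissue, and both calls held in all 19 alternatives. OV and periotic tissue differed by 0.33, with an interval from 0.08 to 0.58 (*q* = 0.0971, limma).

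*Plagl1*, a paternally expressed zinc finger factor that regulates other imprinted genes, had 3 probes, and none was above background at a detection p under 0.01 on any array. At a detection p under 0.05 only 1 of the probes passed, on 1 array. The lead probe read 5.75 to 6.02 over the 9 arrays, so no fold Δ is given.

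*Ndn* encodes necdin, a paternally expressed growth suppressor of the MAGE family that is prominent in postmitotic neurons. It read 11.18, 11.30 and 10.95 in OV, 11.47, 11.49 and 11.58 in periotic and 11.92, 11.93 and 11.82 in embryo-minus-otic tissue. No groups overlapped, and *Ndn* was lowest in OV, with periotic tissue between. OV was lower than embryo-minus-otic tissue by -0.75 ± 0.10 (fold Δ 1.68, *q* = 5.42e-05, limma), a call that was lost with median normalization (*q* = 0.0679). The steps on either side of periotic tissue were -0.37 ± 0.10 each, with *q* = 0.0196 for OV minus periotic and *q* = 0.0319 for periotic minus embryo-minus-otic (limma). The first of these was lost in 5 of 19 alternatives, among them without the third OV array (-0.28, *q* = 0.112) and without the third periotic array (-0.34, *q* = 0.0733). The periotic step from embryo-minus-otic tissue was lost in 8 of 19 alternatives, in which it was -0.17 with median normalization (*q* = 0.735). Among arrays left out in turn it was lost without the first (*q* = 0.125) or second (0.116) periotic array or the first (0.0954) or second (0.0784) embryo-minus-otic array. Beside *Ndn*, 8 of 12 neural tube markers were also lower in OV than in periotic tissue, with sums of 1357 to 1401 in OV, 3752.5 to 4304.6 in periotic tissue and 1798 to 2093 in embryo-minus-otic tissue. Of the 12, 7 were above background on all arrays of a group, with 6 of the lower ones among them, and 3 on no array. The sums include probes at background. The part of these markers in the *Ndn* difference was not tested.

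*Mest*, a paternally expressed enzyme of the hydrolase fold family found in embryonic mesoderm, had 3 probes above background on all arrays. The lead probe read 12.08, 12.14 and 12.11 in OV, 12.05, 11.96 and 12.62 in periotic and 12.45, 12.69 and 12.34 in embryo-minus-otic tissue. OV lay below embryo-minus-otic tissue on every array, and the third periotic array stood above the other 2. The differences were -0.38 (*q* = 0.116, limma) for OV and -0.28 (*q* = 0.366, limma) for periotic tissue, and neither passed. Another probe passed in both, at -0.35 (*q* = 0.0411) and -0.57 (*q* = 0.00267), and the remaining one was at -0.32 (*q* = 0.182) and -0.26 (*q* = 0.394). All 3 probes were thus below the embryo-minus-otic mean in both tissues. Without the third periotic array the lead probe passed as well, at -0.38 (*q* = 0.0209) for OV and -0.48 (*q* = 0.0168) for periotic tissue, and for OV also in a fit of only the 2 groups compared (*q* = 0.0324).

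*H19* is a maternally expressed long non-coding RNA that is transcribed next to *Igf2* and shares its enhancers. It read 11.92, 11.79 and 11.58 in OV, 11.87, 11.97 and 11.87 in periotic and 12.77, 12.91 and 12.97 in embryo-minus-otic tissue. As with *Igf2*, the embryo-minus-otic arrays were above all others, and OV and periotic tissue overlapped. *H19* was 2.17-fold lower in OV (-1.12 ± 0.10, *q* = 9.85e-07, limma) and 1.97-fold lower in periotic tissue (-0.98 ± 0.10, *q* = 1.01e-05, limma) than in embryo-minus-otic tissue. Both calls held in all 19 alternatives, as did those of *Igf2* and *Dlk1*. OV and periotic tissue differed by -0.13, with an interval from -0.35 to 0.08.

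**Figure D2:**
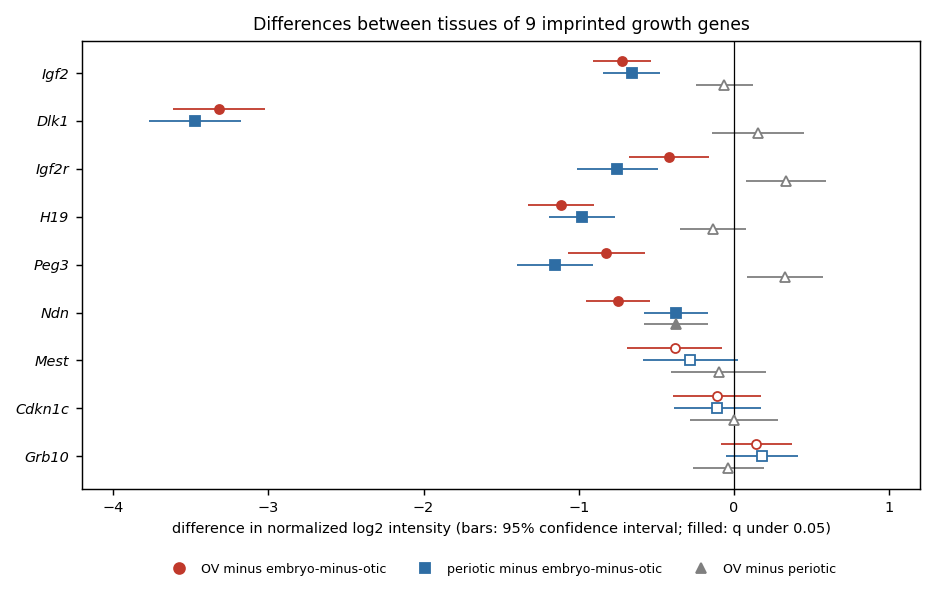
Difference in normalized log2 intensity between tissues (x axis) for the lead probes of the 9 members above background (y axis). Points are limma estimates, bars their 95% confidence intervals, and filled points have a *q* under 0.05. *Dlk1* lies beyond -3 in both comparisons with embryo-minus-otic tissue, and only *Ndn* is filled for OV minus periotic tissue.

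Divided by the parental copy they are known to use, 4 of the 6 paternally expressed members (*Igf2*, *Dlk1*, *Peg3*, *Ndn*) and 2 of the 4 maternally expressed members (*Igf2r*, *H19*) were lower in each comparison with embryo-minus-otic tissue. Without *Plagl1*, the median difference was -0.75 for the 5 paternal and -0.26 for the 4 maternal members in OV, and -0.66 and -0.43 in periotic tissue. No difference between these classes was tested. Genes known as growth promoters and as growth restrainers were both among those that were lower, and *Cdkn1c* and *Grb10*, both restrainers, were among those not called.

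Several members share a chromosome cluster with other imprinted genes, here taken as listed genes with no gap over 1500 kb between neighbours. In the cluster of chromosome 7 that holds *H19*, *Igf2* and *Cdkn1c*, the H19 end carried both members that were lower. *Phlda2*, which lies past *Cdkn1c* and restrains placental growth, was also lower, by -0.63 in OV (*q* = 0.0204, limma) and -0.61 in periotic tissue (*q* = 0.0407, limma). Its periotic and embryo-minus-otic values overlapped, and only 2 periotic arrays were above background. Between the H19 end and *Phlda2*, *Cd81* and *Tssc4* differed by -0.17 and -0.11 in OV and were not called, and *Kcnq1* was not above background in OV. *Tspan32* read 6.26 in embryo-minus-otic tissue and was not above background in OV, where it was at least 1.04-fold lower (*q* = 0.00764). Beside *Dlk1* on chromosome 12, *Dio3*, which inactivates thyroid hormone, was above background on the embryo-minus-otic arrays only and was at least 1.22-fold higher there than in OV (*q* = 0.00136) and at least 1.23-fold higher than in periotic tissue (*q* = 0.00206). *Rtl1* of the same cluster was above background on no array. Next to *Ndn*, *Mkrn3* was lower in OV than in periotic tissue by -0.52 (*q* = 0.0349, limma) and did not differ by the test from embryo-minus-otic tissue (-0.29, *q* = 0.292). *Usp29* beside *Peg3* was above background on 2 embryo-minus-otic arrays only and was not called. *Ddc*, a decarboxylase of monoamine synthesis beside *Grb10*, was lower in OV than in both other tissues (-0.37, *q* = 0.0197, and -0.50, *q* = 0.00237).

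**Figure D3:**
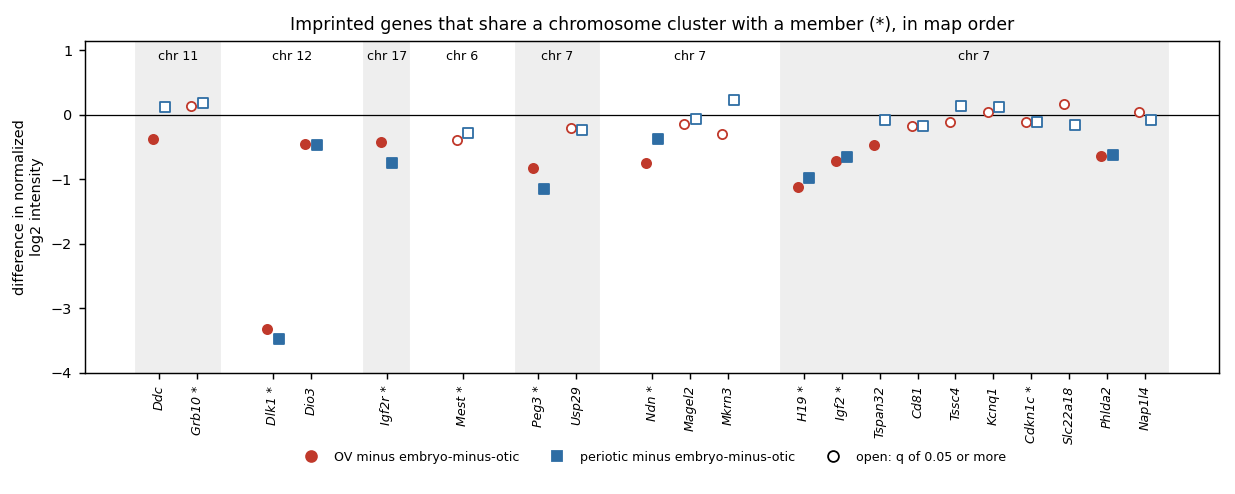
Difference in normalized log2 intensity from embryo-minus-otic tissue (y axis) for imprinted genes above background on at least 1 array that share a cluster with a member (asterisk), in map order without distances (x axis). Circles are OV and squares periotic tissue, both against the same embryo-minus-otic arrays, filled where *q* is under 0.05, and genes not above background in a tissue are drawn at their measured value. *H19*, *Igf2* and *Phlda2* are filled in both, while *Cdkn1c* in the same cluster lies near 0.

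Beyond the members, 40 of 51 other imprinted genes listed were on the array, of which 19 were above background on all arrays of a group and 14 on no array. Of the 40, 2 were higher and 7 lower in OV than in embryo-minus-otic tissue, 2 were higher and 4 lower in periotic than in embryo-minus-otic tissue, and 3 were higher and 7 lower in OV than in periotic tissue. Their median differences were -0.10, -0.06 and -0.03. Among the 19, in the same order, 1 was higher and 6 lower, 2 higher and 4 lower, and 1 higher and 6 lower. Over all probes above background on all arrays of a group, 23.2%, 12.1% and 20.9% were called in either direction. *Asb4*, a maternally expressed ubiquitin ligase component, showed the largest drop. It read 6.47, 6.74 and 6.47 in OV, 6.64, 6.81 and 7.05 in periotic and 8.16, 8.68 and 8.15 in embryo-minus-otic tissue, and only the last stood apart. Its fold Δ was 3.42 for OV (*q* = 3.29e-07) and 2.82 for periotic tissue (*q* = 5.74e-06). A second, dimmer *Asb4* probe was called lower in both as well, with a fold Δ of 1.68 and 1.57. *Peg10*, a paternally expressed gene derived from a retrotransposon, was also lower in both, with -0.63 (*q* = 6.55e-05) and -0.66 (*q* = 7.81e-05).

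Called changes of the other imprinted genes ran in both directions. *Snrpn*, a splicing protein gene expressed in brain, was highest in periotic tissue, at 11.75, 11.90 and 11.74, against 11.19, 11.14 and 11.16 in OV and 11.39, 11.25 and 11.55 in embryo-minus-otic tissue. It was higher than in OV by 0.63 (written as OV minus periotic, -0.63, *q* = 2.01e-04) and higher than in embryo-minus-otic tissue by 0.40 (*q* = 0.0172). *Ppp1r9a*, which encodes the neuronal actin-binding protein neurabin, was also higher in periotic than in embryo-minus-otic tissue, by 0.40 (*q* = 0.0239). *Nap1l5* was not above background in OV and was at least 1.13-fold higher in periotic tissue (*q* = 2.19e-05). In OV, *Atp10a*, a phospholipid flippase, was higher than in embryo-minus-otic tissue by 0.42 (*q* = 0.0250) and than in periotic tissue by 0.49 (*q* = 0.00877). *Rasgrf1* was above background only on 2 OV arrays, at least 1.01-fold above embryo-minus-otic tissue (*q* = 0.00663) and at least 1.03-fold above periotic tissue (*q* = 4.11e-04). *Slc22a18* was called higher in OV than in periotic tissue (*q* = 0.0275) but was above background on 1 OV array only, so no fold Δ is given. Without the second OV array the called genes numbered 5 in place of 9 for OV against embryo-minus-otic tissue, and without that array or the first or second periotic array 6 in place of 10 for OV against periotic tissue. Without the second periotic or the first embryo-minus-otic array they were 3 in place of 6 for periotic against embryo-minus-otic tissue.

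IGF signalling, in which *Igf2*, *Igf2r* and *Grb10* act, was described from a list of 17 genes, of which 12 were above background on all arrays of a group. They were ligands, receptors, substrates and binding proteins. The list also held *Igf2bp1*, *Igf2bp2* and *Igf2bp3*, whose products bind *Igf2* mRNA and which were not called. In OV against embryo-minus-otic tissue 2 of the 17 were higher and 3 lower, and in OV against periotic tissue 2 were higher and 1 lower. In periotic against embryo-minus-otic tissue 2 were lower. All called genes were among the 12. Over all probes above background on all arrays of a group, 23.2%, 20.9% and 12.1% were called in these comparisons, in either direction. *Igf1*, the second IGF ligand, read 6.99, 7.21 and 6.78 in OV, 7.03, 6.95 and 6.72 in periotic and 6.54, 6.68 and 6.64 in embryo-minus-otic tissue. Its lowest values were in embryo-minus-otic tissue, and it was higher in OV by 0.37 (*q* = 0.0477), while OV and periotic tissue overlapped. A second, dimmer *Igf1* probe showed no such rise, with OV minus embryo-minus-otic at 0.016 (*q* = 0.963, limma). The *q* of the lead probe was close to 0.05. Genes of the list called higher in this comparison fell from 2 to 1 with median or no normalization, and without any 1 of the embryo-minus-otic arrays. *Igf1r*, the receptor that carries the growth signal of both ligands, differed by 0.42 in OV and 0.17 in periotic tissue from embryo-minus-otic tissue (*q* = 0.100 and 0.682), and the insulin receptor probe (*Insr*) was above background on no array.

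*Irs2*, a docking protein below the IGF1 and insulin receptors, was the gene of this list with the largest rise in OV. It read 9.25, 9.47 and 9.71 in OV, 8.65, 8.64 and 8.21 in periotic and 8.85, 8.65 and 8.56 in embryo-minus-otic tissue. All OV arrays were above the others, with a fold Δ of 1.73 against embryo-minus-otic (*q* = 8.00e-04) and 1.97 against periotic tissue (*q* = 1.02e-04). *Igfals*, which stabilizes IGF complexes in serum, was above background on the OV arrays only and was at least 1.10-fold higher than in periotic tissue (*q* = 0.00928).

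Of the binding proteins, which hold IGFs outside the cell, 3 were lower in OV than in embryo-minus-otic tissue. *Igfbp7*, a related secreted protein of vessels and stroma, read 6.26, 5.89 and 5.79 in OV, of which only 1 was above background, 7.09, 7.61 and 7.32 in periotic tissue and 7.44, 7.95 and 7.22 in embryo-minus-otic tissue. It was lower in OV than in embryo-minus-otic tissue by -1.56 (*q* = 1.12e-05) and than in periotic tissue by -1.36 (*q* = 4.52e-05). Beside it, 5 and 4 of 8 endothelial markers were lower in OV in the same comparisons, with sums of 1364 to 1609 in OV, 2133 to 2306.5 in periotic tissue and 2278 to 2626 in embryo-minus-otic tissue, and their part was not tested. *Igfbp2* differed from embryo-minus-otic tissue by -1.21 in OV (*q* = 0.00102) and -0.84 in periotic tissue (*q* = 0.0288), and *Igfbp3* by -0.50 (*q* = 0.0145) and -0.88 (*q* = 2.76e-04). A second *Igfbp2* probe was at -1.07 in OV (*q* = 0.00288, limma) and did not pass in periotic tissue (-0.72, *q* = 0.0647, limma). Without the first OV or the second embryo-minus-otic array 3 genes of the list were called in place of 5 for OV, and without periotic array 1 or 3 or embryo-minus-otic array 1 or 2, 1 in place of 2 for periotic tissue.

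**Figure D4:**
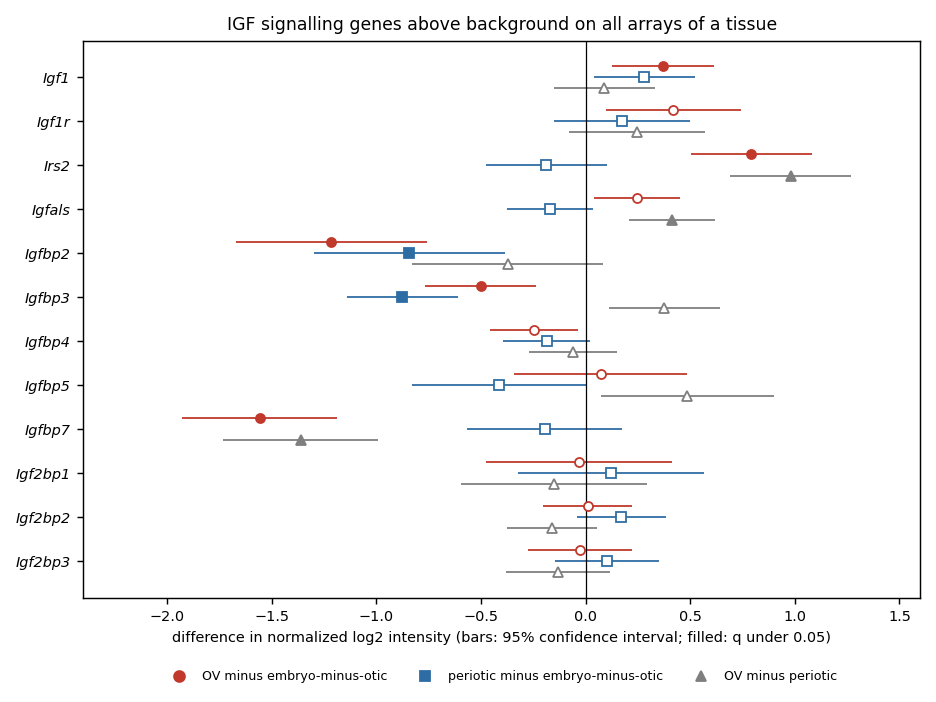
Difference in normalized log2 intensity between tissues (x axis) for the 12 IGF signalling genes above background on all arrays of a tissue (y axis). Points are limma estimates with 95% confidence intervals, filled where *q* is under 0.05. *Irs2* lies to the right of 0 in both OV comparisons, and *Igfbp7* to the left of -1.

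Genes on the array whose pattern was most like that of a member were named by the Pearson correlation of log2 intensity over the 9 arrays, among 11837 other probes above background on all arrays of a group. These r values are descriptions, since the arrays are 3 tissues with 3 arrays each. For *Dlk1* the closest were *Hoxd8*, *Hoxa5* and *Hoxc6* (r of 0.998 to 0.999), homeobox genes of the trunk, with differences in OV of -2.54, -3.46 and -4.63. For *H19* they were *D030013I16Rik*, *Myl1*, a skeletal muscle myosin light chain, and *Arg1*, the arginase of the urea cycle (r of 0.986 to 0.990). For *Igf2* they were *Hspb1*, a small heat shock protein, *Pln*, the phospholamban of heart muscle, and *Cmya4* (r of 0.986 to 0.993). *Ndn* was closest to *Ppic*, *Foxd1*, a forkhead factor of stromal cells, and *E430026A01Rik* (r of 0.983 to 0.986). The closest probe was *2310045B01Rik* for *Peg3* (r of 0.987), *Plcg2* for *Igf2r* (0.974), *Prkcn* for *Grb10* (0.950) and *H1fx* for *Cdkn1c* (0.931). Between members, the highest r was 0.982 for *Dlk1* with *H19*, and *Igf2* had 0.943 with *H19* and 0.956 with *Dlk1*.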

How the data were processed

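RNA of 9 pools was measured on 1-colour Illumina MouseRef-8 arrays. The deposited values are GenomeStudio average signals, an intensity per probe that was not normalized between arrays, with a detection p-value from the negative controls. Whether a background was subtracted is not given in the sources used here, and slides and bead counts were not analysed here. Arrays were grouped by the tissue in their labels. The methods name 3 litters, but not whether each pool of a group was a separate litter, so p-values measure the spread between these pools.

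Signals were log2 transformed (values under 1 set to 1), quantile normalized over 9 arrays and fitted with limma 3.58.1 (lmFit, eBayes) in R 4.3.3 as 1 model of 3 groups. *q* is the Benjamini-Hochberg adjusted p over all 25697 probes. The fit was tested on simulated data. Above background means a detection p under 0.01 (0.05 as the alternative). On each array, 11283 to 12160 probes passed, including 12 of the 15 members' probes, and the number of arrays limits the precision. A gene's lead probe is the one with the highest mean over all arrays. Where a group had no array above background, the fold Δ is a lower bound: the brighter mean against the mean of, per array, the higher of the dim probe and the lowest signal among probes above background.

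The members and gene lists were chosen with earlier results of these data known. Named from the lists were the 3 genes with the largest called change in each direction per comparison, *Igf1*, *Igf1r* and *Insr*, and the 3 probes likest each member. Cluster neighbours and marker examples were named after their values were seen. Of the list symbols, 144 were found on the array directly, 8 by a synonym and 16 were not matched. Marker lists covered mesenchyme, epithelium, otic, neural tube, erythroid, liver and endoderm, heart muscle and endothelium. RefSeq tables on GRCm38.p6 gave names, map order and sequences.

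Alternatives were neqc (offset 16), median or no normalization, only probes above background, only the 2 groups compared, the replicate block, an intensity trend, array weights, each array left out, the mean of a gene's probes and a test against a 1.2-fold change.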

Additional observations from a re-analysis of the deposited data

How the results depend on the processing

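The calls of *Igf2*, *Dlk1*, *H19* and *Peg3* against embryo-minus-otic tissue held in all 19 alternatives in both comparisons. Over the members' differences, 467 results under an alternative kept direction and call, 27 lost the call, 6 gained it and 13 changed sign, all of the last in differences that were not called. For OV minus periotic tissue, with an array left out, *Dlk1* ranged from -0.0078 to 0.30, *Mest* from -0.23 to 0.11, *Cdkn1c* from -0.18 to 0.15 and *Grb10* from -0.17 to 0.037, and *Mest* was 0.020 as the mean of its probes. *Cdkn1c* for periotic minus embryo-minus-otic tissue ranged from -0.25 to 0.070 with an array left out and was 0.045 with median normalization.

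Members called between OV and periotic tissue (1) numbered 0 with median, 0 with no normalization and 0 against a 1.2-fold change, 2 with only the 2 groups compared and 0 to 2 with an array left out. Other imprinted genes called against embryo-minus-otic tissue were 4 of 9 (OV) and 3 of 6 (periotic) without normalization and 2 in each against a 1.2-fold change, with 5 to 11 and 3 to 5 when an array was left out. Between OV and periotic tissue they were 5 with median, 5 with no normalization and 3 against a 1.2-fold change, and 6 to 10 with an array left out. IGF signalling genes called for OV against embryo-minus-otic tissue (5) were 3 with median, 3 with no normalization, 3 against a 1.2-fold change and 3 to 6 with an array left out. For periotic tissue (2) they were 1 with neqc, 1 with median normalization, 1 with only the 2 groups and 1 against a 1.2-fold change, and 1 to 2 with an array left out. Here a test against a change is stricter by construction. With an array left out the counts rose in some cases and fell in others, and the cause of these and the other shifts was not tested. Over all probes, no normalization left 588 higher and 795 lower calls for OV against embryo-minus-otic, 325 and 371 for periotic against embryo-minus-otic, and 620 and 761 for OV against periotic tissue, and median normalization 814 and 870 for the last.

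Arrays with the same replicate number deviated together only in part (correlations of 0.01 to 0.23), so the numbers were not taken to pair samples. With the replicate block, 2 members in place of 1 (the added one was *Igf2r*, higher in OV, *q* = 0.0426, limma) and 5 IGF signalling genes in place of 3 were called between OV and periotic tissue. The limits are 3 arrays per group, pooled tissue, and 1 probe for most genes. *Plagl1* was too dim to compare.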

Other observations

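Among the marker lists, erythroid genes gave the highest sums in each tissue. Of 11 on the array, 9 were lower in OV than in embryo-minus-otic tissue and 9 lower than in periotic tissue, while 2 were lower in periotic than in embryo-minus-otic tissue. Their summed linear intensity was 12678 to 30927 in OV, 48790.7 to 57635.8 in periotic tissue and 65215.9 to 71750.6 in embryo-minus-otic tissue. The OV sums stood below all others. Between OV and periotic tissue *Ndn* was called, lower in OV (-0.37, *q* = 0.0196, limma), and the other members were not. The part of erythroid cells in the differences of the members was not tested. The summed intensity of the 10 members was 39123.5 to 41929.9 in OV, 41037.1 to 43454.3 in periotic tissue and 55150.3 to 57622.8 in embryo-minus-otic tissue.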
